A study of Mus musculus with 10 samples.

Results

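Transcripts of 10 chemokines and cytokines that gut epithelial cells secrete or display were examined in jejunal epithelium after loss of the motor protein MYO5B. They were chosen by name, as the rows of the expression table for the 7 chemokines Ccl25, Ccl28, Ccl20, Ccl6, Cxcl1, Cxcl16 and Cx3cl1 and the 3 cytokines Il18, Il15 and Tslp, so they are 10 of 35275 genes listed. All 10 had a mean of at least 0.1 FPKM (fragments per kilobase, relative to the total counted on genes) over the 10 libraries and entered the test. Every mouse was an adult C57BL/6 animal of genotype VillinCreERT2;MYO5Bflox/flox, in which the villin promoter drives the inducible recombinase in the intestinal epithelium and not in leukocytes or stroma. Control mice (mice 2, 4 and 5) were given corn oil and kept their floxed alleles intact. The MYO5B-knockout mice called vehicle knockouts (mice 3, 5, 6 and 7) had a single 2 mg dose of tamoxifen and then vehicle. Those called LPA knockouts (mice 1, 4 and 5) had tamoxifen and, for 4 days, lysophosphatidic acid (LPA), a bioactive phospholipid, at 3 mg/kg. Their titles give the route as ip, the paper's abbreviation of intraperitoneal. All 10 mice are listed at day 4, and the paper dates the knockout RNA to 4 days after induction of the recombinase. The knockout and tamoxifen itself cannot be told apart here, because no control mouse received tamoxifen. The description of LPA knockout mouse 1 names both vehicle and LPA, while its title places it with the LPA knockouts.

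Chemokines are small secreted proteins that bind G protein-coupled receptors on leukocytes and direct where those cells go. In the small intestine Ccl25 is the best known epithelial signal for gut homing through its receptor Ccr9, Ccl20 recruits Ccr6-bearing cells, Ccl28 recruits antibody-secreting cells, and Cxcl1 recruits neutrophils. Cxcl16 and Cx3cl1 are made as membrane proteins that proteases can release. Of the cytokines, Il18 is stored as a precursor, Il15 is presented on its own receptor chain to intraepithelial lymphocytes, and Tslp acts on dendritic cells and lymphocytes.

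The promoter sequences of 4 chemokines are shown because the results below turn on them: Ccl20 and Ccl6, which passed the test in a comparison with the controls, Ccl25, whose call depended on the processing, and Cxcl1, whose values in the LPA knockouts lay above all others without passing. Each run is the 250 bases before an annotated start in RefSeq (build GRCm38.p6), read 5′ to 3′ on the strand of the gene. Capitals mark matches on either strand to 4 motifs, namely the NF-kB type (GGGAA, any 3 bases, then CC), TGANTCA for AP-1, the TATA box as the letters TATAAA, and CAAAGTCC for the HNF4 type.
Ccl20, chr1:83116516-83116765, plus strand: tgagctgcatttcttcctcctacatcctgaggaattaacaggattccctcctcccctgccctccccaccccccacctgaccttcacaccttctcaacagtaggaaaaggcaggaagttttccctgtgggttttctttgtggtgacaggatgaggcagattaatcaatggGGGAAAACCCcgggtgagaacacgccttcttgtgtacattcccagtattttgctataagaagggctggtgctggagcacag
Ccl6, chr11:83593088-83593337, minus strand: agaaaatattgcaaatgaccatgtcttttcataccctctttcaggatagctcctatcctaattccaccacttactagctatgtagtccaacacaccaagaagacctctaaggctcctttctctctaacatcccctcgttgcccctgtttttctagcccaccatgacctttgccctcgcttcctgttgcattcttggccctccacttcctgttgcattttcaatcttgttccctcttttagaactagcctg
Ccl25 (the downstream of a pair of annotated starts), chr8:4349338-4349587, plus strand: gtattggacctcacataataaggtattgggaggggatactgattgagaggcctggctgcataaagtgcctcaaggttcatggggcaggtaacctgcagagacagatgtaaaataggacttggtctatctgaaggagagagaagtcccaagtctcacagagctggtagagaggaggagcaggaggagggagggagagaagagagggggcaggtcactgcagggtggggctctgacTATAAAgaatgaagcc
Cxcl1, chr5:90890995-90891244, plus strand: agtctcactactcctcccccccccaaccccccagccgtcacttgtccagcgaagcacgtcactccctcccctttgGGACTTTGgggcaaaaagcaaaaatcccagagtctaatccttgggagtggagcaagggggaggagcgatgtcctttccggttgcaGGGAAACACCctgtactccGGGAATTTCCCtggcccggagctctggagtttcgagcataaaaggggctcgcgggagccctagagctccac

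Such windows were searched for 7 of the 10 transcripts, 8 windows in all since Ccl25 has a pair of starts. None was at hand for Cxcl16 and Il15. Windows on chromosome 18, where Tslp lies, were left out for the 10 transcripts but kept among all windows. The NF-kB type motif was present in 2 of the 8, those of Ccl20 and Cxcl1, and in 4.94% of all 32851 windows of the same length. In Ccl20 the match lay 81 to 72 bases before the start. Cxcl1 had 3 overlapping or neighbouring matches on both strands between 90 and 61 bases before the start, and a match to the HNF4 type motif, which 1.2% of all windows held. The TATA box letters were found in the windows of Ccl25, Cx3cl1 and Il18, and in 12.4% of all windows. No AP-1 match was present in the 8 windows, against 6.75% of all windows.

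Between 10949420 and 24470409 reads per library lay on genes, and 1 read on a gene of 1 kb corresponded to 0.0409 to 0.0913 FPKM. Control mouse 2 and vehicle knockout mouse 3 stood apart, with 12242 and 12601 genes detected against 17309 to 18267 in the other 8 libraries, and with 17.4% and 18% of their reads on mitochondrial genes against 1.98% to 3.5%. Values without these 2 libraries are therefore given beside the results of the 10 transcripts. All mice are labelled male, yet 0 reads on 4 Y-linked genes were found in vehicle knockout mouse 3 and LPA knockout mouse 1, where Xist measured 8.41 and 15.1 FPKM. Myo5b itself measured 16.5, 32.0 and 26.1 FPKM in the controls, 10.5 to 13.6 FPKM in the vehicle knockouts and 10.3 to 11.7 FPKM in the LPA knockouts, with no overlap between control and knockout libraries. The 8 epithelial markers summed to 6781 to 8306 FPKM in the controls, 8811 to 11565 FPKM in the vehicle knockouts and 10745 to 13206 FPKM in the LPA knockouts, and none was at 0 in any library.

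In control epithelium Ccl25 was the most abundant of the 10 transcripts by mean FPKM, a level per gene length, at 432 ± 254 FPKM (SD, n = 3). Il18 followed at 129 ± 43.0 FPKM (SD, n = 3), and its range overlapped that of Ccl25. Ccl6, Cx3cl1, Ccl20 and Cxcl16 had means of 53.0, 41.2, 35.2 and 34.3 FPKM with overlapping ranges, all below the range of Il18. Il15 and Ccl28 had means of 7.64 and 5.78 FPKM, and Cxcl1 and Tslp were near the limit of detection at 0.151 and 0.0886 FPKM. In the vehicle knockouts the order changed for Ccl6 and Ccl20, which stood at the fifth and the eighth place, each below the whole range of Cx3cl1, and Il18 had the highest mean, 160 ± 33.2 FPKM (SD, n = 4).

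The first question was which of these signals differed between MYO5B-knockout and control epithelium. Ccl20 and Ccl6 were lower in the vehicle knockouts, and no other chemokine or cytokine of the 10 passed the test (limma on log2 of FPKM + 0.1, adjusted over all 15729 genes tested). These 2 of 10 compare with 2.01% of all genes tested, or 0.884% in the lower direction alone. The median log2 fold change (log2FC) of the 10 was -0.65, with 8 of 10 lower, whereas the median of all genes tested was 0.29, with 36.6% lower. Median-ratio scaling of the libraries brought the median of all genes to 0.039, so the log2FCs of most genes are lower on that scale. It also changed the genes called from 177 higher and 139 lower to 223 higher and 375 lower.

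Ccl20 (ENSMUSG00000026166, chromosome 1 from 83116766 to 83119167, GRCm38) measured 17.7, 73.2 and 14.8 FPKM in control mice 2, 4 and 5, and 2.32, 1.72, 1.28 and 2.66 FPKM in vehicle knockout mice 3, 5, 6 and 7. Every knockout library lay below every control library, and control mouse 4 was far above the other controls. The ratio of the mean FPKM was 17.7-fold, lower in the vehicle knockouts. The log2FC, a difference between the group means of log2(FPKM + 0.1), was -3.73 (SE 0.61, adjusted p by limma = 0.0174). Without the 2 libraries with few genes it was -4.11 (adjusted p by limma = 0.0322). With 1 mouse left out it passed in 7 of 10 fits, and failed without control mouse 4 (adjusted p = 0.0582), vehicle knockout mouse 5 (adjusted p = 0.0651) or vehicle knockout mouse 6 (adjusted p = 0.0535) in limma. In bulk RNA fewer cells that make a transcript and less of it per cell cannot be told apart.

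Ccl6 (ENSMUSG00000018927, chromosome 11 from 83587882 to 83593087), a rodent chemokine that acts on Ccr1-bearing myeloid cells, measured 19.2, 70.3 and 69.6 FPKM in the controls. In the vehicle knockouts it measured 4.12, 7.25, 10.2 and 6.10 FPKM. The groups did not overlap, and the lowest control value was that of mouse 2, a library with few genes. The ratio of the mean FPKM was 7.68-fold. The log2FC was -2.77 (SE 0.56, adjusted p by limma = 0.0379) and -3.17 without the 2 libraries (adjusted p by limma = 0.0186). This call was fragile. In limma it passed in 2 of 10 fits with 1 mouse left out, those without control mouse 2 or LPA knockout mouse 1, and the adjusted p of the 10 fits ran from 0.0175 to 0.159. A non-coding gene on the opposite strand, E230016K23Rik, overlaps Ccl6 and had 2.80% as many reads.

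Ccl25 (ENSMUSG00000023235, chromosome 8 from 4325210 to 4360020) measured 138, 572 and 586 FPKM in the controls. In the vehicle knockouts it measured 48.1, 185, 178 and 150.2 FPKM. The lowest control value, again in mouse 2, lay below 3 knockout values, so the groups overlapped. The ratio of the mean FPKM was 3.08-fold. The log2FC was -1.53 and did not pass (SE 0.59, adjusted p by limma = 0.217). Without the 2 libraries with few genes the groups separated and the change was -1.76 (adjusted p by limma = 0.0126). It also passed after median-ratio scaling (-1.82, adjusted p by limma = 0.0461) and on the recovered reads with edgeR (adjusted p = 0.0466) and DESeq2 (adjusted p = 0.000634), but not after quantile normalization (adjusted p by limma = 0.186).

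Ccl28 (chromosome 13) measured 1.65, 9.04 and 6.64 FPKM in the controls and 0.416, 4.74, 4.51 and 5.04 FPKM in the vehicle knockouts. The lowest value of each group came from its library with few genes, and the groups overlapped. Its log2FC was -0.78 (SE 0.85, adjusted p by limma = 0.674), and -0.69 without those libraries (adjusted p by limma = 0.195).

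The membrane-bound chemokines gave no call in limma. Cx3cl1 (chromosome 8) measured 23.2, 51.5 and 49.0 FPKM in the controls and 11.8, 33.7, 33.8 and 40.4 FPKM in the vehicle knockouts, a log2FC of -0.51 (SE 0.46, adjusted p by limma = 0.595) and -0.48 without the 2 libraries (adjusted p by limma = 0.199). Cxcl16 (chromosome 11) measured 62.1, 22.3 and 18.6 FPKM in the controls and 80.5, 24.0, 15.0 and 16.0 FPKM in the vehicle knockouts. Its 2 highest values among these 7 mice were those of the libraries with few genes, 1 in each group, and its log2FC was -0.18 with all libraries (SE 0.61, adjusted p by limma = 0.913) and without these 2 (adjusted p by limma = 0.749). The neighbouring gene Zmynd15 overlaps Cxcl16 and had 1.22% as many reads. Neutrophil-attracting Cxcl1 was barely detected, with 0, 4 and 3 reads in the controls and 0, 1, 4 and 9 reads in the vehicle knockouts, so a difference between these groups was not detectable at this depth.

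Among the cytokines, Il18 (chromosome 9) measured 79.2, 149.7 and 157 FPKM in the controls and 112, 172, 188 and 169.6 FPKM in the vehicle knockouts, a log2FC of 0.35 (SE 0.34, adjusted p by limma = 0.627) and 0.20 without the 2 libraries (adjusted p by limma = 0.665). Il15 (chromosome 8) measured 1.28, 9.70 and 11.9 FPKM in the controls and 0.431, 7.96, 4.82 and 3.23 FPKM in the vehicle knockouts, a log2FC of -0.92 (SE 0.97, adjusted p by limma = 0.661) and -1.09 without the 2 libraries (adjusted p by limma = 0.167). Both overlapped between the groups, and for both the lowest value of each group was that of the library with few genes. Tslp rested on 22 reads over all 10 libraries, of which 5 were in the controls and 4 in the vehicle knockouts, and nothing could be read from its change.

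**Figure D1:**
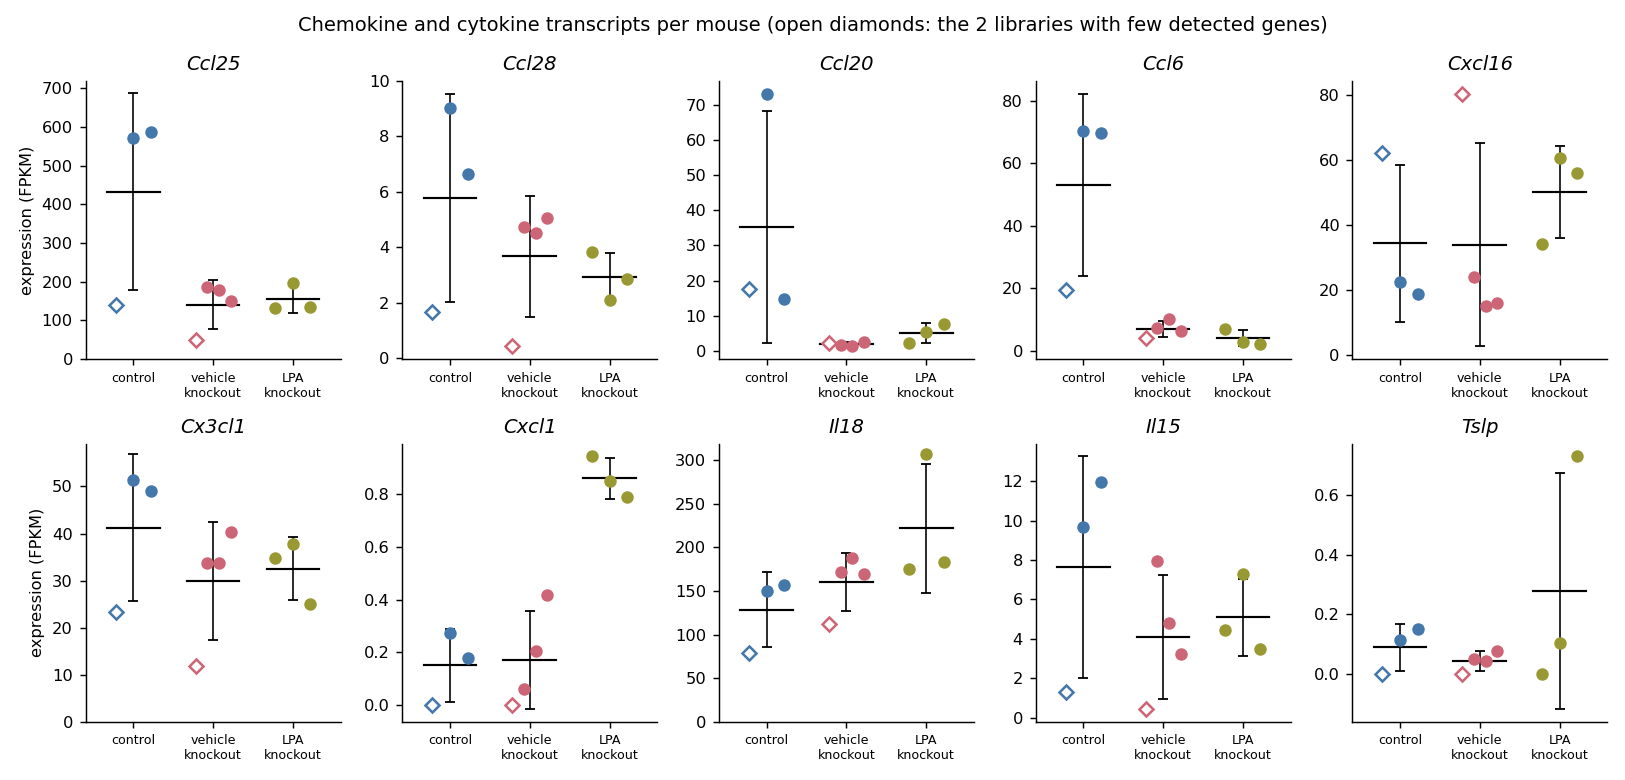
Expression in FPKM (vertical axis, linear, a scale for each panel) of the 10 chemokine and cytokine transcripts in each mouse, by group; horizontal bars are group means, error bars SD (n = 3, 4 and 3), and open diamonds mark the libraries with few detected genes, those of control mouse 2 and vehicle knockout mouse 3. Ccl20 and Ccl6 lie lower in every vehicle knockout and LPA knockout mouse than in any control mouse, and Cxcl1 lies higher in every LPA knockout mouse than in the other 7.

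With the 2 libraries left out, 7 of the 10 transcripts lay below the controls in every vehicle knockout mouse and 1, Il18, lay above. With 2 controls against 3 knockout mice, however, 55.9% of all genes tested did not overlap, and 20.5% of all genes tested lay lower. With all libraries 2 of 10 did not overlap, against 17.2% of all genes tested. Ccl25, Ccl20 and Ccl6 were the 3 of 10 that passed without the 2 libraries (4.95% of all genes tested), without these and LPA knockout mouse 1 (8.1%), after median-ratio scaling (3.8%), with edgeR (2.82%) and with DESeq2 (11.6%). With no filter on low values 1 of 10 passed (0.836% of all genes), and with a term for the 2 libraries 4 of 10 passed (15.6%).

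The next question was whether LPA changed these signals in MYO5B-knockout epithelium. No gene passed limma's adjusted p of 0.05 between LPA and vehicle knockouts, so 0 of 10 compares with 0.0% of all genes tested. At an unadjusted p under 0.05 limma gave 459 genes, 1 of them among the 10. On the recovered reads edgeR called 0 genes and DESeq2 called 7, none of them among the 10. The values of the 4 transcripts with the largest log2FCs, Cxcl1, Ccl20, Ccl6 and Cxcl16, are given in full as a description.

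Cxcl1 (ENSMUSG00000029380, chromosome 5 from 90891241 to 90893115) measured 0.943, 0.849 and 0.787 FPKM in LPA knockout mice 1, 4 and 5, and 0, 0.0609, 0.205 and 0.419 FPKM in the vehicle knockouts. All LPA knockout libraries lay above all others, on 22, 14 and 10 reads. The log2FC was 2.09 (SE 0.68, unadjusted p = 0.0107 and adjusted p = 1.00 in limma), and 1.70 without the 2 libraries. It was the 1 of 10 whose groups did not overlap, against 4.16% of all genes tested. Without the 2 libraries 3 of 10 did not overlap, against 11.8%.

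Cxcl16 (ENSMUSG00000018920, chromosome 11 from 70453983 to 70459984) measured 34.1, 60.6 and 56.1 FPKM in the LPA knockouts. These values lay above those of vehicle knockout mice 5, 6 and 7 and below that of mouse 3. The log2FC was 0.90 (SE 0.61, adjusted p by limma = 1.00) and 1.44 without the 2 libraries (adjusted p by limma = 0.405). Leaving out LPA knockout mouse 1 as well, it was 1.69 (adjusted p by limma = 0.0434), in a fit of 2 LPA knockouts and 3 vehicle knockouts where 1.25% of all genes were called.

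Ccl20 measured 2.22, 5.51 and 7.79 FPKM in the LPA knockouts, with mouse 1 inside the range of the vehicle knockouts and mice 4 and 5 above it. The log2FC was 1.21 (SE 0.61, adjusted p by limma = 1.00) and 1.30 without the 2 libraries (adjusted p by limma = 0.473). Ccl6 measured 6.90, 2.65 and 2.19 FPKM, a log2FC of -0.92 (SE 0.56, adjusted p by limma = 1.00), which became -1.63 without the 2 libraries and LPA knockout mouse 1 (adjusted p by limma = 0.0456). In both transcripts the LPA knockout mouse 1 lay closer to the vehicle knockouts than mice 4 and 5 did. The log2FCs of Ccl25, Ccl28, Cx3cl1, Il18, Il15 and Tslp lay between 0.082 and 0.87, and those of Ccl25, Ccl28, Cx3cl1 and Il15 turned negative without the 2 libraries.

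LPA knockouts were also compared with controls, a comparison that shares its control libraries with the first and its LPA libraries with the second. Ccl6 was the 1 of 10 that passed, against 2.32% of all genes tested, or 0.776% in the lower direction. The ratio of its mean FPKM was 13.6-fold. The log2FC was -3.69 (SE 0.60, adjusted p by limma = 0.0133) and -4.31 without the 2 libraries (adjusted p by limma = 0.0047). It passed in 6 of 10 fits with 1 mouse left out, and failed in limma without control mouse 4 (adjusted p = 0.0615), control mouse 5 (adjusted p = 0.0712), LPA knockout mouse 4 (adjusted p = 0.063) or LPA knockout mouse 5 (adjusted p = 0.0744). The median of all genes tested was 0.41 in this comparison and 0.10 after median-ratio scaling, which changed the genes called from 243 higher and 122 lower to 221 higher and 269 lower.

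Ccl20 remained below the controls in every LPA knockout mouse, with a log2FC of -2.52 that did not pass in limma (SE 0.65, adjusted p = 0.0793) but did in edgeR (adjusted p = 0.0491) and DESeq2 (adjusted p = 0.000669). Without the 2 libraries it was -2.82 (adjusted p by limma = 0.0612). Ccl25 measured 133, 197 and 134 FPKM in the LPA knockouts, a log2FC of -1.24 (SE 0.63, adjusted p by limma = 0.364) and -1.93 without the 2 libraries (adjusted p by limma = 0.00602). Ccl28 measured 3.84, 2.09 and 2.83 FPKM, a log2FC of -0.70 (adjusted p by limma = 0.737) and -1.42 without the 2 libraries (adjusted p by limma = 0.0311). For both, LPA knockout values lay above control mouse 2 or close to it and below control mice 4 and 5.

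Cxcl1 and Il18 lay above the controls in every LPA knockout mouse. Cxcl1 had a log2FC of 2.13 (SE 0.72, adjusted p by limma = 0.170) and 1.57 without the 2 libraries (adjusted p by limma = 0.0977). Il18 measured 175, 307 and 184 FPKM, with a log2FC of 0.80 (SE 0.36, adjusted p by limma = 0.306) and 0.48 without the 2 libraries (adjusted p by limma = 0.271). Neither passed, and for Il18 the change was 0.43 after median-ratio scaling. Cxcl16 had a log2FC of 0.72 (adjusted p by limma = 0.608), which was 1.26 without the 2 libraries (adjusted p by limma = 0.0496) and -0.023 in DESeq2, so its direction depended on the tool. Cx3cl1 at 34.7, 37.8 and 25.0 FPKM, Il15 at 4.46, 7.30 and 3.50 FPKM and Tslp at 0, 0.102 and 0.729 FPKM overlapped the controls. For Cx3cl1 (log2FC -0.28, adjusted p by limma = 0.806) and Il15 (-0.14, adjusted p by limma = 0.96) this was through control mouse 2 alone, at 23.2 and 1.28 FPKM. Every LPA knockout lay below control mice 4 and 5 in both. Tslp had a log2FC of 0.54 (adjusted p by limma = 0.751). In total 4 of 10 did not overlap, 2 below and 2 above, against 26.9% of all genes tested. Without the 2 libraries 9 of 10 did not overlap, against 45.0%, and 4 of 10 passed (Ccl25, Ccl28, Ccl6 and Cxcl16), against 8.56% of all genes. The count was also 4 without LPA knockout mouse 1 as well (12.1%), 2 with edgeR (2.4%), 3 with DESeq2 (9.47%) and 5 with a term for the 2 libraries (11.4%).

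**Figure D2:**
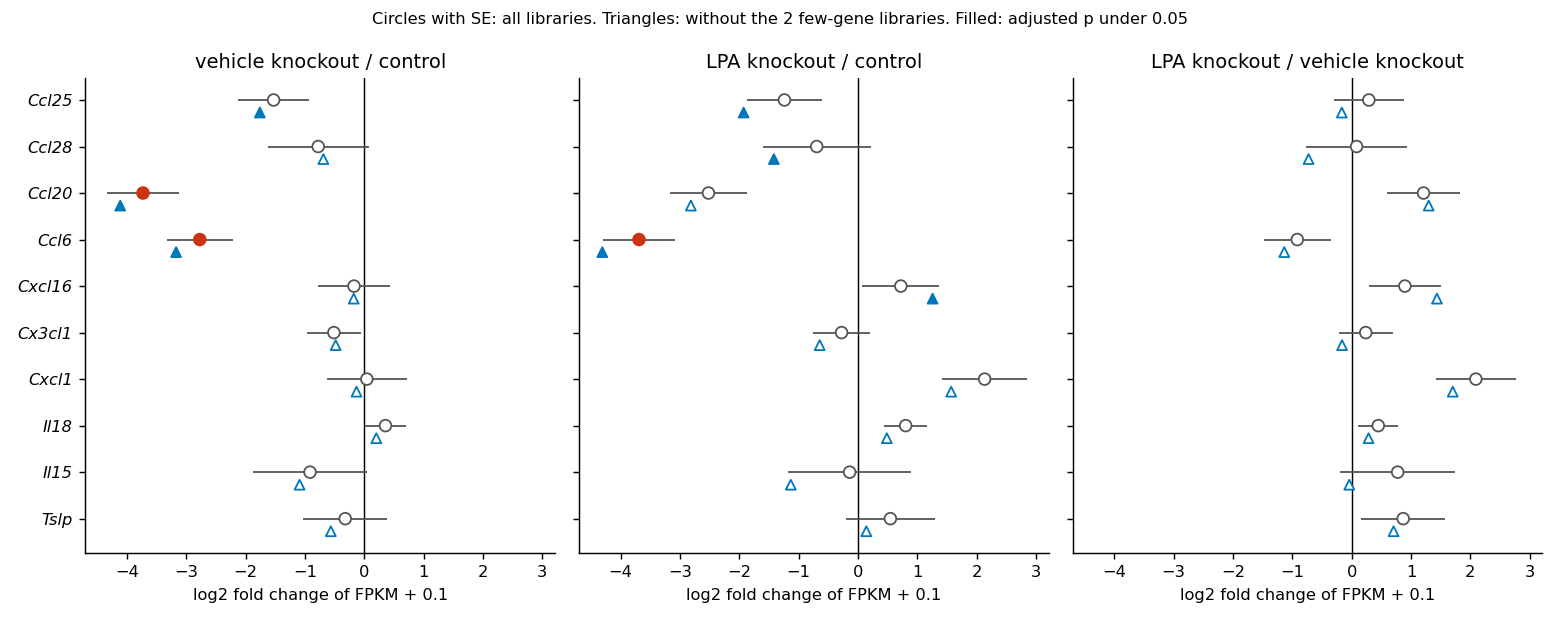
Log2 fold changes of FPKM + 0.1 (horizontal axis) of the 10 transcripts in the 3 comparisons; circles with standard errors use all 10 libraries, triangles leave out the 2 libraries with few detected genes, and filled symbols have a limma adjusted p under 0.05. Filled circles are Ccl20 (-3.73) and Ccl6 (-2.77) between vehicle knockouts and controls and Ccl6 (-3.69) between LPA knockouts and controls, and none is filled between LPA and vehicle knockouts.

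Markers of other cell types were measured in the same libraries. The 15 markers of T cells and intraepithelial lymphocytes summed to 462 to 658 FPKM in the controls, 17.9 to 196 FPKM in the vehicle knockouts and 31.5 to 58.3 FPKM in the LPA knockouts. Most of the control sums came from Gzma (226 to 331 FPKM) and Ccl5 (110 to 170 FPKM). Each of the 15 had a lower estimate in the vehicle knockouts, with a median log2FC of -2.71, where 36.6% of all genes tested were lower. Cd7 (-2.74, adjusted p by limma = 0.0491) and Gzma (-3.18, adjusted p by limma = 0.0438) were the 2 that passed, against 2.01% of all genes tested. Neither passed without the 2 libraries (adjusted p by limma = 0.0778 and 0.0796), where 0 of the 15 passed, against 4.95% of all genes tested. After median-ratio scaling 6 passed in limma (3.8% of all genes tested), with edgeR 2 (2.82%) and with DESeq2 7 (11.6%). Between LPA knockouts and controls all 15 had a lower estimate, with a median log2FC of -3.16. There 3 passed in limma (2.32% of all genes tested), and 4 without the 2 libraries (8.56%). Up to 5 of the 15 were at 0 in a library, those of vehicle knockout mouse 3, and Cd3e and Cd3g were detected in all 10. The part of these lower lymphocyte levels in the lower Ccl20 and Ccl6 was not tested.

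The 6 markers of B and plasma cells summed to 66.9 to 119 FPKM, 6.81 to 54.6 FPKM and 17.6 to 90.3 FPKM in the same order of groups. Jchain made up most of the control sums, at 62.8 to 100.3 FPKM. Of the 5 tested, 3 had a lower estimate in the vehicle knockouts than in the controls, and 2, Cd79b and Ms4a1, a higher one. Cd79a (-3.16) and Mzb1 (-3.88) passed as lower in limma, against 2.01% of all genes tested. Between LPA knockouts and controls 0 passed in limma, against 2.32% of all genes tested. The 11 markers of myeloid cells and granulocytes summed to 8.28 to 15.9 FPKM in the controls, 3.55 to 16.8 FPKM in the vehicle knockouts and 26.2 to 35.7 FPKM in the LPA knockouts. The 3 LPA knockouts thus had both the highest Cxcl1 and the highest myeloid sums. The neutrophil markers S100a8 and S100a9 were at 0 in all controls and in vehicle knockout mice 3, 5 and 6. In vehicle knockout mouse 7 they measured 0.226 and 0.598 FPKM. S100a8 was at 0 in LPA knockout mice 1 and 4 and at 0.191 FPKM in mouse 5. S100a9 measured 0.0787, 0.334 and 3.04 FPKM in LPA knockout mice 1, 4 and 5, so these 2 markers overlapped between LPA and vehicle knockouts. The 10 stromal and endothelial markers summed to 4.37 to 7.45, 3.05 to 5.46 and 6.30 to 13.6 FPKM. All 8 of them that were tested likewise had a higher estimate in the LPA than in the vehicle knockouts. Their median log2FC was 1.44, and 0 passed in limma. The 10 enterocyte markers summed to 31408 to 41373 FPKM, 14412 to 26476 FPKM and 22426 to 43367 FPKM. Between vehicle knockouts and controls 8 of the 10 had a lower estimate, with a median log2FC of -1.04, where 36.6% of all genes tested were lower. Lct (-8.32) passed in limma, against 2.01% of all genes tested. Between LPA knockouts and controls 7 of the 10 had a lower estimate, with a median log2FC of -1.14, and Lct (-9.23) and Slc5a1 (-1.79) passed in limma. Whether any of these moved the 10 transcripts was not tested.

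**Figure D3:**
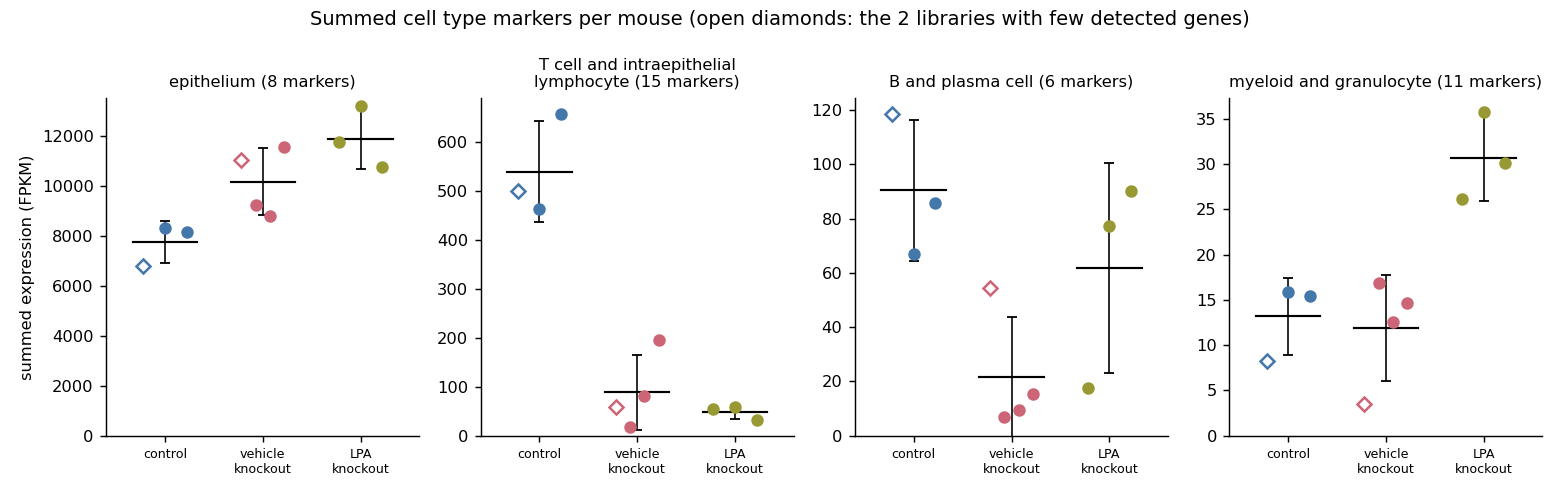
Summed expression in FPKM (vertical axis from 0) of 4 marker lists in each mouse, by group; bars are means, error bars SD (n = 3, 4 and 3), and open diamonds are the 2 libraries with few detected genes. The T cell and intraepithelial lymphocyte sum lies at 462 to 658 FPKM in the controls and at most 196 FPKM in the others, and the myeloid sum is highest in the 3 LPA knockouts.

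Divided by the sum of the 8 epithelial markers of the same library, Ccl25 was at 2.04% to 7.20% in the controls, 0.435% to 2.03% in the vehicle knockouts and 1.13% to 1.49% in the LPA knockouts. That epithelial sum was itself higher in every knockout library than in every control, which lowers any gene of a knockout on this scale. On it 3 of the 10 lay below every control in all vehicle knockouts (Ccl25, Ccl20 and Ccl6), against 10.9% of all genes tested, and 4 of the 10 in all LPA knockouts (the same 3 and Cx3cl1), against 15.8%. For Ccl25 the highest vehicle knockout, at 2.03%, and the lowest control, mouse 2 at 2.04%, were nearly equal. The epithelial markers did not move alike. Against the controls 5 of the 8 had a higher estimate in the vehicle knockouts and 7 in the LPA knockouts. Vil1 had lower means, at 656, 433 and 305 FPKM in controls, vehicle knockouts and LPA knockouts.

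Receptors of the chemokines and cytokines were then examined, 17 genes of which 12 were abundant enough to test. Between vehicle knockouts and controls 11 of the 12 had a lower estimate, with a median log2FC of -0.96, where 36.6% of all genes tested were lower. In limma Il2rg was the 1 of 12 that passed, against 2.01% of all genes tested. By edgeR 0 of the 12 passed, and by DESeq2 4 passed as lower (Ccr10, Ccr1, Il18r1 and Il2rg), against 11.6% of all genes tested. Il2rg, the common gamma chain through which Il15 signals, measured 1.57, 1.24 and 1.33 FPKM in the controls and 0, 0.0695, 0.0879 and 0.398 FPKM in the vehicle knockouts. The groups did not overlap, and the log2FC was -2.89 (SE 0.58, adjusted p by limma = 0.0367), passing in 2 of 10 fits with 1 mouse left out. Between LPA knockouts and controls it was -1.88 (adjusted p by limma = 0.155). In that comparison limma and edgeR called 0 of the 12, and DESeq2 called 3 lower (Cxcr6, Il2rb and Il2rg), against 9.47% of all genes tested.

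Ccr9, the receptor of Ccl25, measured 0.363, 0.659 and 0.472 FPKM in the controls, 0, 0.356, 0.485 and 0.429 FPKM in the vehicle knockouts and 0.222, 0.327 and 0.106 FPKM in the LPA knockouts, with no call in limma. Ccr6, the receptor of Ccl20, was below the filter, with at most 0.0325 FPKM in a library. Ccr1, through which Ccl6 acts, measured 0.320, 0.138 and 0.222 FPKM in the controls, 0 to 0.0626 FPKM in the vehicle knockouts and 0.202, 0.592 and 0.716 FPKM in the LPA knockouts. LPA knockouts thus had more Ccr1 than vehicle knockouts in every library, with a log2FC of 1.97 that did not pass (SE 0.51, adjusted p by limma = 1.00).

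Cxcr6, the receptor of Cxcl16, measured 1.00, 1.51 and 1.33 FPKM in the controls and 1.21, 0.153, 0.284 and 0.679 FPKM in vehicle knockout mice 3, 5, 6 and 7. Mouse 3, a library with few genes, was the only vehicle knockout within the control range. In the LPA knockouts it measured 0.216, 0.153 and 0.119 FPKM. Against the controls this was a log2FC of -2.39 (SE 0.65, adjusted p by limma = 0.089) that became -2.55 without the 2 libraries (adjusted p by limma = 0.0262). Cx3cr1, which binds Cx3cl1, ran from 0.157 to 1.17 FPKM in the controls and from 0.0713 to 1.18 FPKM in the vehicle knockouts. Its highest value in each of these groups was that of the library with few genes.

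Crlf2, the Tslp receptor chain, was the 1 receptor with a higher estimate in the vehicle knockouts. It measured 6.36, 5.44 and 4.61 FPKM in the controls, 3.31, 13.0, 8.13 and 13.8 FPKM in the vehicle knockouts and 12.3, 20.6 and 16.9 FPKM in the LPA knockouts. All LPA knockout libraries lay above all controls, with a log2FC of 1.57 (SE 0.51, adjusted p by limma = 0.152) that passed without the 2 libraries (1.68, adjusted p by limma = 0.0224). Il15ra, which presents Il15, was at 0 in both libraries with few genes and between 1.68 and 4.69 FPKM in the other 8. Il2rb, which pairs with Il2rg, had the largest change of a receptor between LPA knockouts and controls, -2.74 (SE 0.96, adjusted p by limma = 0.183). Ccr10, Il18r1, Il7r and Ackr4 gave no call in limma, and Ccr3, Cxcr2, Il18rap and Ackr2 were below the filter.

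**Figure D4:**
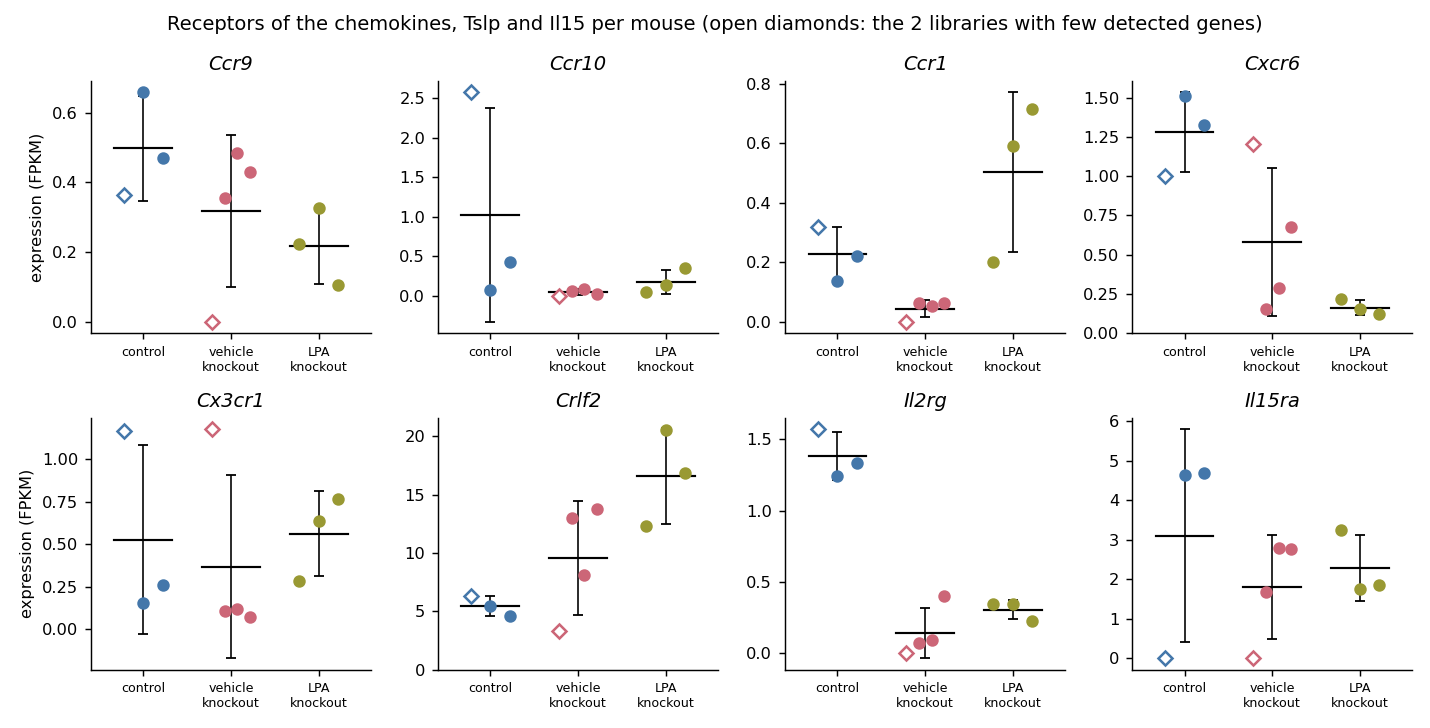
Expression in FPKM (vertical axis, linear, a scale for each panel) of 8 receptors of the chemokines, of Tslp and of Il15 in each mouse, by group; bars are means, error bars SD (n = 3, 4 and 3), and open diamonds are the 2 libraries with few detected genes. Il2rg lies at 1.24 to 1.57 FPKM in the controls and at most 0.398 FPKM in all others, and Crlf2 is higher in every LPA knockout mouse than in any control mouse.

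Genes listed for shedding, cleavage and inhibition of such signals gave 1 call in limma with all libraries. It was Il1rn, whose target is not among the 10 transcripts. Of 18 such genes, including Adam10 and Adam17, which shed Cx3cl1 and Cxcl16, and Casp1, which matures Il18, 0 passed between vehicle knockouts and controls in limma (3 at an unadjusted p under 0.05, as were 2764 of all 15729 genes), with a median log2FC of 0.13 and the largest change in Il1rn (1.76, adjusted p by limma = 0.269). Between LPA knockouts and controls 1 passed. That gene was again Il1rn, which blocks the interleukin-1 receptor, at 0, 0.158 and 0.277 FPKM in the controls and at 2.43, 4.51 and 2.18 FPKM in the LPA knockouts, a log2FC of 3.81 (SE 0.82, adjusted p by limma = 0.044) that passed in 2 of 10 fits with 1 mouse left out. It also had the largest change of the list between LPA and vehicle knockouts (2.05, adjusted p by limma = 1.00). Without the 2 libraries limma called 1 of the 18 as lower in the vehicle knockouts against controls (4.95% of all genes tested were called). In the LPA knockouts it then called 2 as higher and 4 as lower (8.56% of all genes tested). On the recovered reads edgeR did not call Il1rn but called Naip5 as lower in both comparisons with the controls and Nlrp6 as lower in the LPA knockouts. DESeq2 called Casp4, Nlrp6 and Naip5 as lower in the vehicle knockouts, and in the LPA knockouts it called Nlrp6 and Naip5 as lower and Il1rn as higher.

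Of 31 other chemokines 20 could be tested. In the vehicle knockouts 17 of the 20 were lower, with a median log2FC of -0.92, where 36.6% of all genes tested were lower. None of the lower ones passed in limma or edgeR with all libraries. Cxcl11 passed as lower in limma without the 2 libraries, where 4.95% of all genes tested were called. After median-ratio scaling 2 lower ones passed in limma (Ccl5 and Xcl1, both also on the T cell list), against 3.8% of all genes tested. In DESeq2 6 lower ones passed (Ccl4, Ccl5, Ccl9, Ccl24, Ccl27a and Xcl1), against 11.6% of all genes tested. Ccl24 had the largest change, at 11.5, 5.69 and 15.6 FPKM in the controls and 3.54, 0.135, 0.266 and 1.03 FPKM in the vehicle knockouts (-3.72, adjusted p by limma = 0.0842). Between LPA knockouts and controls the largest change was that of Ccl5, which is also on the T cell list (-3.50, adjusted p by limma = 0.0537), and between LPA and vehicle knockouts it was that of Pf4 (2.92, adjusted p by limma = 1.00). Mif, a cytokine with chemokine-like function, was the 1 that passed in both comparisons with the controls. It was higher, at 80.3 ± 25.4 FPKM (SD, n = 3) in the controls, 254 ± 39.6 FPKM (SD, n = 4) in the vehicle knockouts and 297 ± 65.6 FPKM (SD, n = 3) in the LPA knockouts (1.69 and 1.90, adjusted p by limma = 0.0213 and 0.0133). The mouse genome holds many processed copies of Mif, so its reads are uncertain. Neither edgeR (adjusted p = 0.113 and 0.122) nor limma after median-ratio scaling (adjusted p = 0.107 and 0.118) called it.

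Among 28 other epithelial cytokines and growth factors 17 were tested. Areg, an epidermal growth factor receptor ligand, rose from 16.6 ± 3.79 FPKM (SD, n = 3) to 216 ± 89.1 FPKM (SD, n = 4) in the vehicle knockouts (3.64, adjusted p by limma = 0.00129) and 433 ± 94.6 FPKM (SD, n = 3) in the LPA knockouts (4.70, adjusted p by limma = 0.0004), and it passed with any 1 mouse left out. Tnfsf10, a death receptor ligand, fell from 12.8 ± 5.42 FPKM (SD, n = 3) to 1.63 ± 0.967 FPKM (SD, n = 4) and 0.593 ± 0.198 FPKM (SD, n = 3), with log2FCs of -3.13 (adjusted p by limma = 0.0441) and -4.18 (adjusted p by limma = 0.0167). The first of these passed in 0 of 10 fits with 1 mouse left out, and was lost without the 2 libraries (adjusted p by limma = 0.073). Tgfb1 had the largest change between LPA and vehicle knockouts (1.77, adjusted p by limma = 1.00). The barrier cytokines Il33, Il7 and Il34 gave no call in limma, and Il25 was below the filter.

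Of 22 other epithelial ligands for intraepithelial lymphocytes 17 were tested. H2-T3, the thymus leukemia antigen that binds CD8αα, measured 133, 101 and 108 FPKM in the controls, 9.68, 8.65, 29.3 and 37.2 FPKM in the vehicle knockouts and 14.8, 15.4 and 7.56 FPKM in the LPA knockouts. It was lower in both comparisons with the controls (-2.69 and -3.23, adjusted p by limma = 0.0335 and 0.0183), though the first was lost without the 2 libraries (adjusted p by limma = 0.073). Reads of H2-T3 may be shared with closely related H2-T genes. Pigr, which carries polymeric immunoglobulin across the epithelium, measured 5694, 1734 and 1356 FPKM in the controls. It measured 830, 231, 408 and 447 FPKM in the vehicle knockouts and 303, 232 and 502 FPKM in the LPA knockouts. Every knockout library of both groups thus lay below every control. In limma Pigr passed as lower in the LPA knockouts (-2.86, adjusted p by limma = 0.0418), though in 2 of 10 fits with 1 mouse left out. It did not pass between vehicle knockouts and controls. Madcam1 had the largest change between LPA and vehicle knockouts (1.30, adjusted p by limma = 1.00). The butyrophilin-like genes Btnl1, Btnl2, Btnl4 and Btnl6 gave no call in limma.

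For each of the 8 transcripts with a mean of at least 1 FPKM, the genes with the most similar profile over the 10 libraries were taken among 10574 others, by Pearson's r of log2(FPKM + 0.1). These values describe libraries that share group and quality differences. Ccl25 was most like Pink1, Ugt2b5 and Bco2 (r = 0.98 for each), Ccl6 was most like Slc7a8 (0.98), Zfp768 (0.97) and Slc5a1 (0.97, 1 of the enterocyte markers), and Ccl20 was most like Pim1 (0.95), Ces2a (0.93) and Decr1 (0.92). Cx3cl1 was most like Vps9d1 (0.99), Agpat1 (0.99) and Mdh2 (0.99), and Ccl28 was most like Tmem171, Elac1 (both 0.98) and Atp5c1 (0.97). Il15 was most like Dhrs4, AI480526 (both 0.99) and Fam3c (0.98), Il18 was most like Gm3608 (0.98), Pold4 (0.96) and BC016579 (0.95), and Cxcl16 was most like 2310047M10Rik, Aprt and Klhdc3 (0.95 each). Without the 2 libraries with few genes these correlations were between 0.852 and 0.987.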

How the data were processed

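Jejunal epithelial cells were mechanically isolated from 3 controls, 4 vehicle knockouts and 3 LPA knockouts, and poly-A RNA was sequenced. The authors deposited FPKM per gene in a single table. The submitters' processing notes name STAR 2.5, TopHat, HTSeq 0.6.1 and DESeq2 with GRCm38 (mm10), without roles, and neither scaling between libraries nor a strand setting is given in the sources used here. FPKM multiplied by gene length were whole multiples of 1 step in each library (100% of values under 1000 reads, tolerance 0.01). This gave read counts, which equalled 63 of 63 counts that the authors deposited in a list of changed genes. That list and the pathway tables also hold the authors' fold changes and p-values, which were not used.

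Genes averaging 0.1 FPKM or more (15729) were compared as log2(FPKM + 0.1) in 1 limma 3.58.1 model of the 3 groups (R 4.3.3, trended variance, two-sided, Benjamini-Hochberg adjustment, threshold 0.05). Tested on simulated data for vehicle knockouts against controls with 15729 genes, it recovered 66% of changes of 2 and 100% of changes of 4 on the log2 scale. The simulated counts had a single dispersion and no libraries of low quality, and only genes with many reads were changed. Recovery in the real libraries was therefore not measured. Alternatives were edgeR 4.0.16 and DESeq2 1.42.0 on recovered reads, other pseudocounts, filters and scalings, and fits without some libraries. A term for the 2 libraries with few genes was added after seeing the data. No shared litter is stated, so p-values measure the spread between these mice. The 10 transcripts and all lists were chosen with earlier results of these data known. From the other lists, genes that passed, the gene with the largest change per comparison and the receptors are named, and any further gene was chosen after its values were seen. Coordinates are those of the deposited table.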

Additional observations from a re-analysis of the deposited data

Results flagged for a closer look

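Among the 4 vehicle knockouts, 2 of the 10 transcripts had a mouse set far from the other 3 by Dixon's test at the 95% level, which flags about 1 in 20 groups by chance. Ccl28 in vehicle knockout mouse 3 was at 0.416 FPKM, against 4.51 to 5.04 FPKM in mice 5, 6 and 7. Cxcl16 in the same mouse was at 80.5 FPKM, against 15.0 to 24.0 FPKM in the others. Both values come from a library with few detected genes, and in control mouse 2, the other such library, Ccl28 was likewise the lowest (1.65 FPKM) and Cxcl16 the highest (62.1 FPKM) of its group.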

How the results depend on the processing

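Of 634 alternative values of the 10 transcripts, 558 kept direction and side of the threshold. Between vehicle knockouts and controls the genes called were 316, and 188 with no filter on low values, 598 after median-ratio scaling, 804 after quantile normalization, 1830 with DESeq2, 778 without the 2 libraries with few genes, 1274 without these and LPA knockout mouse 1, 2449 with a term for the 2 libraries, and 44 to 403 with 1 mouse left out. Of the 10 transcripts, 2 passed, and 1 with no filter (Ccl20), 4 with the term (adding Ccl25 and Il15) and 0 to 2 with 1 mouse left out. Between LPA and vehicle knockouts DESeq2 called 7 genes, and the fit without 3 libraries called 197 genes and 2 transcripts, against 0 otherwise. Between LPA knockouts and controls the genes called were 365, and 626 after quantile normalization, 1489 with DESeq2, 1346 and 1899 without 2 and 3 libraries, 1800 with the term and 73 to 702 with 1 mouse left out. The transcripts were 1, and 2 with edgeR, 3 with DESeq2, 4 without 2 or 3 libraries, 5 with the term and 0 to 1 with 1 mouse left out. With a replicate block on the mouse number in this comparison, 0 genes and 0 transcripts passed, and Ccl6 was at -4.80 (limma's adjusted p = 0.159). Deviations from the group means had r = 0.104 and -0.355 for the mice numbered 4 and 5 in both groups. The other pairs of groups share the number 5 alone. Its r was 0.3 between controls and vehicle knockouts and -0.214 between vehicle and LPA knockouts. The 2 libraries with few genes enter these deviations (r = 0.546 between them), so the values cannot decide whether the numbers pair mice. Causes of these shifts were not tested.

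Directions that turned were those of changes that had not passed. Between vehicle knockouts and controls Cxcl1 was at -0.051 and -0.10 after the scalings, -0.13 without 2 or 3 libraries, -0.095 with the term, and -0.52, -0.11 and -0.36 without control mouse 2 or knockout mouse 6 or 7 (range -0.52 to 0.43). Cxcl16 was at 0.36, 0.090 and 0.057 without the same mice (range -0.72 to 0.36 with 1 mouse left out), and Ccl28 at 0.030 without knockout mouse 3 (range -1.50 to 0.030). Between LPA and vehicle knockouts Ccl28 was at -0.073 with a pseudocount of 1, -0.00087 after quantile normalization, -0.31 with edgeR, -0.29 with DESeq2, -0.73 without knockout mouse 3 or the 2 libraries, -0.13 without LPA knockout mouse 1, -0.94 without 3 libraries and -0.60 with the term. In that comparison, without knockout mouse 3 or the 2 libraries, Ccl25 was at -0.17, Cx3cl1 at -0.16 and Il15 at -0.041, and with 1 mouse left out these and Ccl28 reached at most 0.48, 0.43, 1.27 and 0.38. Without 3 libraries Ccl25 was at -0.070 and Cx3cl1 at -0.22, and with the term Ccl25 was at -0.19, Cx3cl1 at -0.10 and Il15 at -0.0072. Between LPA knockouts and controls Cxcl16 was at -0.023 with DESeq2, Il15 at 0.28, 0.43 and 0.088 without control mouse 4, control mouse 5 or LPA knockout mouse 5 (range -1.13 to 0.43), and Tslp at -0.30 without the last (range -0.30 to 1.22). DESeq2 gave no adjusted p for Cxcl16 and Tslp, nor for Cxcl1 between LPA and vehicle knockouts. Depth limits Cxcl1 and Tslp most.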
